A study of Homo sapiens with 19 samples.

Results

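The 9 genes described here are SLC45A1, UGCG, EXT1, ISYNA1, MICAL2, DUSP4, TTC7A, ERGIC1 and FRMD4A. They lie at or near the widest superenhancers that human triple-negative breast cancer cells carried both with and without forced OCT-2, ranked by width with it. They are 9 of 20033 protein-coding genes of the RefSeq GRCh38.p14 table. Their regions were chosen by 2 measured values: the width listed for the OCT-2 cells and the presence of an overlapping region, by 1 bp or more, in the list of the GFP cells. Widths, and presence in both lists, are therefore descriptions of the choice. The 9 regions are 9 of 314 shared superenhancers of the OCT-2 cells, and each named gene is 1 of those that its region meets in OCT-2 cells, except DUSP4, which is the nearest protein-coding gene to a region that meets none.

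A superenhancer is a long stretch of neighbouring enhancers that together carry dense acetylation of histone H3 at lysine 27 (H3K27ac), and it is often found at genes that define a cell's identity or that a tumour cell depends on. OCT-2, the product of POU2F2, is a POU-domain transcription factor best known from B lymphocytes, where it binds the octamer element of immunoglobulin and other promoters. The 9 genes serve unlike tasks: SLC45A1 carries sugar across membranes, TTC7A and ERGIC1 work in membrane lipid supply and early secretory traffic, MICAL2 and FRMD4A act on actin and on cell polarity, UGCG, EXT1 and ISYNA1 are enzymes that build glycolipids, heparan sulfate chains and inositol, and DUSP4 is a phosphatase that switches off MAP kinases.

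Superenhancers and OCT-2 binding were mapped by chromatin immunoprecipitation and sequencing in derivatives of the established breast cancer cell lines MDA-MB-231 and MDA-MB-436. The lists used here, in hg38 coordinates, came from 231Pa_Luc+OCT-2 (OCT-2 cells), MDA-MB-231 cells with stable luciferase and POU2F2 transgenes, and 231Pa_Luc+GFP (GFP cells), the same line with luciferase and GFP. Both are polyclonal pools, both carry luciferase, and each had 2 H3K27ac libraries. The series lists no input library of either. OCT-2 was precipitated in 2 libraries of 231Pa_Luc+OCT-2. The series has no OCT-2 library of the GFP cells, so the forced factor cannot be told apart from the cells' own. The authors merged the replicates of each group into 1 list of intervals that carry no read counts. Depth is therefore unknown, and no difference can be set against a spread between replicates. The lists held 518 superenhancers in OCT-2 cells, 337 in GFP cells and 5741 OCT-2 peaks. Superenhancers of both lists lay within 10 kb of all 5 mesenchymal and basal genes checked (VIM, CD44, AXL, EGFR and FOSL1), and neither list had one at the 5 luminal or the 4 leukocyte genes checked.

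The 9 regions were 239.4 to 471.1 kb wide in OCT-2 cells (median 313.8 kb) and 146.7 to 343.7 kb in GFP cells (median 310.9 kb). The other 305 shared regions had medians of 91.6 kb in OCT-2 cells and 105.8 kb in GFP cells. The widest of those others in GFP cells was 344.5 kb, so by GFP width the 9 do not rank first. All 9 were shared by choice, where 60.6% of the 518 superenhancers of the OCT-2 cells were. At the edge of the choice, FRMD4A is the narrowest region inside at 239.4 kb, and the region at SEPTIN9, just outside, was 238.5 kb wide in OCT-2 cells and 226.5 kb in GFP cells. The region at AJUBA, sixth by width at 296.9 kb in OCT-2 cells and 298.0 kb in GFP cells, meets 16 protein-coding genes and is not among the 9.

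The extents fell into 3 kinds, as the map of the 9 loci shows. At UGCG, MICAL2 and DUSP4 the extents of both lists differed by 3.10 kb or less, at MICAL2 with the gap between 2 GFP regions included. At SLC45A1, EXT1 and ISYNA1 the region was wider in OCT-2 cells by 133.1, 22.8 and 174.2 kb. At TTC7A, ERGIC1 and FRMD4A it was narrower in OCT-2 cells by 45.7, 34.2 and 23.0 kb. Thus 3 of the 9 were listed wider in OCT-2 cells, against 34.4% of all shared superenhancers. With the 2 GFP regions at MICAL2 summed instead of spanned, MICAL2 was 27.2 kb wider in OCT-2 cells. By summed GFP regions 4 of the 9 were listed wider there, against 34.7% of all shared superenhancers.

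**Figure D1:**
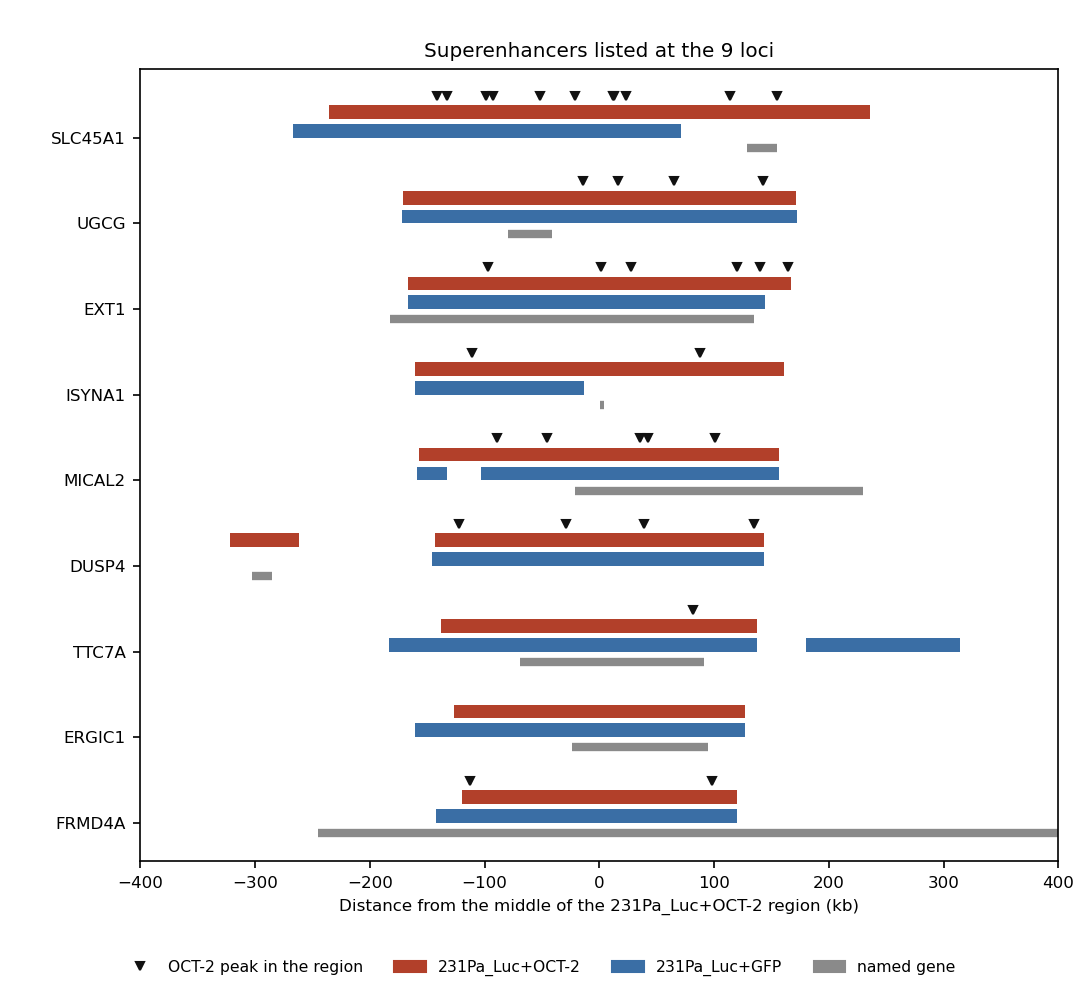
Positions of the superenhancers listed in 231Pa_Luc+OCT-2 (red) and 231Pa_Luc+GFP (blue), OCT-2 peaks (triangles) and the named gene (grey), as distance in kb from the middle of each 231Pa_Luc+OCT-2 region; the FRMD4A gene runs on past the right edge. The 231Pa_Luc+OCT-2 bar at SLC45A1 reaches 164.9 kb and that at ISYNA1 174.3 kb farther right than the 231Pa_Luc+GFP bar, and DUSP4 lies 142.4 kb to the left of its region.

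Most of the regions kept at least 1 end. In 8 of the 9, 1 or both ends of the OCT-2 and GFP regions lay within 1 kb of each other, against 86.6% of the 314 shared regions. Both ends did so in 1 of the 9, at UGCG, against 38.2% of the shared regions. Left ends matched within 1 kb at UGCG, EXT1 and ISYNA1, and right ends at UGCG, MICAL2, DUSP4, TTC7A, ERGIC1 and FRMD4A. SLC45A1 was the exception, with its left end 31.8 kb and its right end 164.9 kb farther right in OCT-2 cells.

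Each listed region is a union of calls, and its name holds a centre and the number of calls merged. If that centre is the mean of the midpoints of 2 calls, its distance from the middle of the union, times 4, is the least by which the ends of both calls differ. In no region merged from 2 calls, 512 in OCT-2 cells and 331 in GFP cells, did this least mismatch exceed the region's width, so the reading is possible everywhere, but the labels do not state it. All statements below on single calls hold only under this reading and give limits, not the calls' own ends. The median of this least mismatch over those regions was 0.432% of the width in OCT-2 cells and 0.644% in GFP cells. Among the 9 regions it exceeded 10% in 4 in OCT-2 cells (SLC45A1, UGCG, ISYNA1 and MICAL2) and in 2 in GFP cells (ISYNA1 and TTC7A). Among the other shared regions it did so in 60 of 302 in OCT-2 cells and, with each GFP region counted once, 75 of 293 in GFP cells. A union is wide where either call is wide, and the 9 were taken for their width. Every listed region was merged from 2 or more calls, so a region called only once may be missing from a list. This limit holds for the separate regions near DUSP4, TTC7A and FRMD4A that 1 of the lists lacks.

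**Figure D2:**
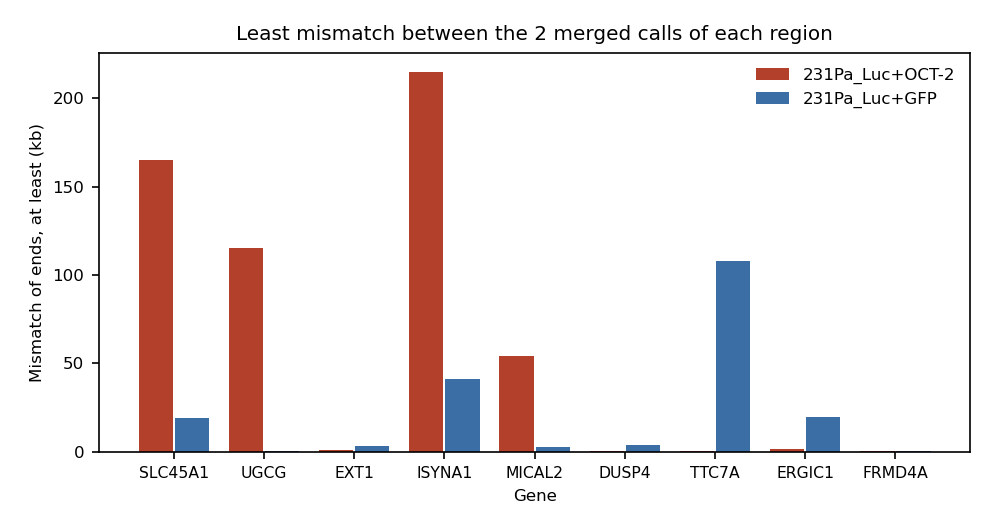
Least mismatch of ends, in kb, between the 2 calls merged into each region of 231Pa_Luc+OCT-2 (red) and 231Pa_Luc+GFP (blue), by gene; for MICAL2 the blue bar is the larger of 2 regions. The red bars of SLC45A1 (164.9 kb), UGCG (115.3 kb), ISYNA1 (215.2 kb) and MICAL2 (54.0 kb) and the blue bar of TTC7A (107.7 kb) stand out.

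SLC45A1, a proton-coupled sugar transporter described mainly in brain, had the widest region and the most OCT-2 peaks, and only the OCT-2 list reached the gene. The region ran over chr1:7953741-8424840 (471.1 kb) in OCT-2 cells and over chr1:7921942-8259982 (338.0 kb) in GFP cells. The gene (chr1:8318114-8344165, 26.1 kb) lay wholly inside the region of OCT-2 cells, and the GFP region ended 58.1 kb short of it. Both lists covered PARK7, a redox-sensitive protein linked to Parkinson disease, and ERRFI1, a feedback inhibitor of the EGF receptor. SLC45A1 and 15.6% of RERE, a nuclear co-repressor, were met in OCT-2 cells alone, and TNFRSF9, a receptor of the TNF family, in GFP cells alone.

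The extra stretch at SLC45A1 was not common to both calls merged in OCT-2 cells, if the names are read as above. 1 of those calls stopped at position 8259916 or before, at least 58.2 kb short of the gene. Within the GFP list 1 call started at 7940888 or later, past the end of TNFRSF9 at 7940839, so that gene was not met by both GFP calls. The mismatch between calls was at least 164.9 kb (35.0% of the width) in OCT-2 cells and 18.9 kb in GFP cells. At the right end the difference between the lists (164.9 kb) was therefore no larger than the mismatch between the calls within the OCT-2 list. At the left end the lists differed by 31.8 kb, more than the 18.9 kb within the GFP list, which is a lower bound.

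The region of SLC45A1 held 11 OCT-2 peaks, 23.3 per Mb, where no other shared region held more than 8. It is also the widest, and its density was not the highest. All 314 shared regions together held 18.7 peaks per Mb, and that at chr20:53735151-53950296 held 37.2. Of the 11 peaks at SLC45A1, 9 lay in the stretch common to both lists and 2 in the stretch of the OCT-2 cells alone. Neighbouring peaks were 0.771 to 91.1 kb apart with a median of 31.8 kb, and the closest pair stood at positions 8201394 and 8202106. The last peak, at 8343508, was the only one in the SLC45A1 gene body, near its end away from the listed start. The other 10 overlapped no protein-coding gene body and lay between ERRFI1 and SLC45A1.

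TTC7A, a scaffold that helps hold phosphatidylinositol 4-kinase at the plasma membrane, was covered completely in both lists. Its region was chr2:46847177-47122583 (275.4 kb) in OCT-2 cells and chr2:46801270-47122378 (321.1 kb) in GFP cells. Right ends differed by 0.205 kb and left ends by 45.9 kb. The least mismatch between calls was 0.006 kb in OCT-2 cells and 107.7 kb in GFP cells. Within the GFP list 1 call started at 46908988 or later, so under the same reading the wider GFP extent was not shared by both of its calls. The region also met MCFD2, which helps carry coagulation factors out of the endoplasmic reticulum, and part of STPG4 in both lists.

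The TTC7A region held 1 OCT-2 peak, at 47065997 inside the gene, or 3.63 per Mb. A second superenhancer of 134.4 kb, over CALM2 (a calmodulin gene), followed 42.5 kb to the right. It was absent from the OCT-2 list and present in the GFP list, and 2 peaks of the OCT-2 cells lay in it.

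ERGIC1, a membrane protein that cycles between the endoplasmic reticulum and the Golgi, had the 1 region of the 9 without an OCT-2 peak. Its region was chr5:172731532-172985071 (253.5 kb) in OCT-2 cells and chr5:172697319-172985052 (287.7 kb) in GFP cells. Right ends were 19 bp apart and left ends 34.2 kb apart. The least mismatch between calls was 1.21 kb in OCT-2 cells and 19.4 kb in GFP cells. Under the same reading of the names, 1 GFP call started at 172716735 or later. Part of the wider GFP extent was then not shared by both of its calls. The gene was covered completely in both lists, together with DUSP1, a phosphatase of MAP kinases that stress induces, and RPL26L1, a ribosomal protein gene, while ATP6V0E1, a subunit of the proton pump, was met over 2.52% of its body in OCT-2 cells and 2.48% in GFP cells. The nearest OCT-2 peak to either end of ERGIC1 was 141.6 kb away, and to DUSP1 323.1 kb.

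MICAL2, a flavoprotein monooxygenase that oxidises actin and thereby frees the co-activator MRTF to work with SRF, had 1 region in OCT-2 cells where the GFP cells had 2. The region was chr11:11975218-12289041 (313.8 kb) in OCT-2 cells. The GFP cells had chr11:11972797-11999343 (26.5 kb) and chr11:12028947-12289031 (260.1 kb), which together spanned 316.2 kb. In the OCT-2 cells 1 call started at 12029242 or later if the names are so read, and that call then left out the stretch of the first GFP region and the gap after it. Right ends were 10 bp apart, inside the gene, and both lists covered 70.9% of MICAL2.

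OCT-2 peaks at MICAL2 numbered 5, or 15.9 per Mb, and 3 lay in the gene, at 12167062, 12174533 and 12232872. Distances between neighbours ran 7.42 to 80.8 kb. The peak at 12086335 was 0.401 kb from the listed start of the non-coding gene LINC02989. The other protein-coding gene met was DKK3, a secreted protein of the Dickkopf family, with 73.9% of its body in the OCT-2 region and 56.8% in the GFP regions.

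FRMD4A, a FERM-domain protein that takes part in epithelial polarity, is a gene of 687.2 kb that the region covers in part. The region was chr10:13769429-14008877 (239.4 kb) in OCT-2 cells and chr10:13746345-14008761 (262.4 kb) in GFP cells, over 34.8% and 38.2% of the gene. No other protein-coding gene was met. The left ends differed by 23.1 kb. The least mismatch between calls was 0.030 kb in OCT-2 cells and 0.034 kb in GFP cells, and as a lower bound it does not show that the calls matched. The right ends were 0.116 kb apart and fell at a listed start of FRMD4A, at 14008550 on the minus strand, 327 bp past it in OCT-2 cells and 211 bp past it in GFP cells. That promoter is shown because both lists end within it or just beyond: the window from RefSeq (GRCh38.p14, chr10:14008501-14008800, minus strand, 250 bases before to 50 after the start) lay wholly inside the OCT-2 region, and its capitals mark the 261 bases inside the GFP region.
FRMD4A promoter: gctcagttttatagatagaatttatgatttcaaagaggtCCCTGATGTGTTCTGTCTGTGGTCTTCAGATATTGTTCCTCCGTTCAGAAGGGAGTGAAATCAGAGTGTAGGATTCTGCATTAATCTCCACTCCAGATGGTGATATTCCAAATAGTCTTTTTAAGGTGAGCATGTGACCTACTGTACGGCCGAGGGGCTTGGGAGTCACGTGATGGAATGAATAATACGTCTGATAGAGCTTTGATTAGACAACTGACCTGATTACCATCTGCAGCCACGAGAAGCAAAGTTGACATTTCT

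The FRMD4A region held 2 OCT-2 peaks 211.6 kb apart, at 13775906 and 13987482, both in the gene, and a further peak lay in the gene outside the region. A separate superenhancer of 79.6 kb, chr10:14337644-14417262, was listed in OCT-2 cells and not in GFP cells. It began 6.72 kb beyond the end of the gene's span, held 1 peak and met no protein-coding gene.

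ISYNA1, the enzyme that makes inositol phosphate from glucose 6-phosphate, showed, among the 9, the widest gap between the lists and the widest gap between the calls within a list. Its region was chr19:18273783-18594727 (320.9 kb) in OCT-2 cells and chr19:18273722-18420454 (146.7 kb) in GFP cells. Left ends were 0.061 kb apart and right ends 174.3 kb apart. The gene (chr19:18434388-18438133, 3.75 kb) lay inside the OCT-2 region, 13.9 kb beyond the GFP region. With at least 50% of each region required to overlap, this pair was no longer shared, since the common stretch made up 45.7% of the OCT-2 region.

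Under the same reading of the names, within the OCT-2 list 1 call at ISYNA1 stopped at 18379489 or before, at least 54.9 kb short of the gene, and within the GFP list 1 call stopped at 18379276 or before. The mismatch was at least 215.2 kb (67.1% of the width) in OCT-2 cells and 41.2 kb (28.1%) in GFP cells. The shorter OCT-2 call was at most 105.7 kb long, which would place the locus 111th among the shared regions by width, and UGCG 12th. The other 7 stayed among the 10 widest by that measure, with EXT1 first.

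The ISYNA1 region was also the most gene-rich of the 9. It met 14 protein-coding genes in OCT-2 cells and 7 in GFP cells. IQCN, JUND, LSM4, PGPEP1, GDF15, LRRC25 and SSBP4 were met in both lists, among them JUND, a subunit of AP-1, and GDF15, a stress-induced cytokine. Those met in OCT-2 cells alone included ISYNA1, ELL, FKBP8, KXD1 and REX1BD. All of these lie beyond the limit of 1 OCT-2 call, if the names are so read. So do GDF15, LRRC25 and SSBP4 of the genes met in both lists, which also lie beyond the limit of 1 GFP call.

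OCT-2 peaks in the ISYNA1 region numbered 2 (6.23 per Mb), each at a gene start and 199.0 kb apart. The peak at 18323209 lay 0.259 kb from the start of LSM4, a subunit of the LSM ring that binds U6 RNA, in the stretch common to both lists. The peak at 18522183 lay 0.232 kb from the start of ELL, a transcription elongation factor, in the stretch of the OCT-2 cells alone. With the region as listed for the GFP cells the count was 1. No peak fell within 10 kb of ISYNA1.

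The promoters of LSM4, ELL and JUND are shown because the first pair holds the peaks at gene starts and the last holds the octamer, the letters ATGCAAAT, searched on both strands (ATTTGCAT on the other). All 3 windows are from RefSeq, GRCh38.p14, on the minus strand, from 250 bases before to 50 after the start. In LSM4 (chr19:18323027-18323326) capitals mark the 118 bases inside the OCT-2 peak, in ELL (chr19:18522021-18522320) the 138 bases inside the peak, and in JUND (chr19:18281573-18281872) the octamer, whose first base is 100 bases before the start.
LSM4 promoter: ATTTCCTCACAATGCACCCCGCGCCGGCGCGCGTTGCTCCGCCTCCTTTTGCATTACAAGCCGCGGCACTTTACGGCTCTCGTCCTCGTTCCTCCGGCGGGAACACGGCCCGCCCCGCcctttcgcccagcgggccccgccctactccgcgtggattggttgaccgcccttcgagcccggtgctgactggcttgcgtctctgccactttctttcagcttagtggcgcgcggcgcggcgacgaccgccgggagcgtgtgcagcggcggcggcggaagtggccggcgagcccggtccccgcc
ELL promoter: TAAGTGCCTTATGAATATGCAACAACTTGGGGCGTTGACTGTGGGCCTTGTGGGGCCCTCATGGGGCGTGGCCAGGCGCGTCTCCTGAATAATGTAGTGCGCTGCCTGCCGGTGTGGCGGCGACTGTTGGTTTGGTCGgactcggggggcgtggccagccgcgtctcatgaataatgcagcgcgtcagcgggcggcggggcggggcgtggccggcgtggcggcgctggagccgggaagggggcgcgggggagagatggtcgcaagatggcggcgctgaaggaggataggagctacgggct
JUND promoter: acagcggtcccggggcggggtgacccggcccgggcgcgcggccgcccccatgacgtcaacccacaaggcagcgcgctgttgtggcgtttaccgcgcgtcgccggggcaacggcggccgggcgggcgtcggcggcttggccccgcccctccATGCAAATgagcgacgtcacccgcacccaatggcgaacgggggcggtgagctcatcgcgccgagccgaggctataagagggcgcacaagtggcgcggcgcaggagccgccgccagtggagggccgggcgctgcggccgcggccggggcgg

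The LSM4 peak held the first 7 letters of the octamer, ATGCAAA or TTTGCAT, and the ELL peak the first 6, ATGCAA or TTGCAT, while no base of the JUND window lay in a peak. Over 34943 promoter windows of this length, 1.77% held the octamer, 4.47% its first 7 letters and 10.1% its first 6, with the longer forms counted among the shorter. Of the 38 windows inside the regions with listed promoters, 2 (5.26%) held part of a peak, against 1.41% of all windows, and 1 (2.63%) held the octamer. For 6 of the 9 genes a promoter was listed, and none of their 9 windows held the octamer. A match of letters is a description and not a shown binding site.

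UGCG, the enzyme that adds glucose to ceramide and so starts the synthesis of most glycosphingolipids, had the most alike extents of the 9. Its region was chr9:111805006-112148105 (343.1 kb) in OCT-2 cells and chr9:111804887-112148616 (343.7 kb) in GFP cells, with left ends 0.119 kb and right ends 0.511 kb apart. Both lists covered UGCG (chr9:111896814-111935369) completely and met SUSD1, a sushi-domain protein, over 79.8% of its body in OCT-2 cells and 80.2% in GFP cells. In the OCT-2 cells, however, 1 call started at 111920302 or later if the names are so read, so the mismatch within that list was at least 115.3 kb (33.6%) where in GFP cells it was at least 0.360 kb. The match of the listed ends then does not extend to both calls. That OCT-2 call also left out the start of UGCG, at 111896814, and covered the gene at most in part.

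UGCG had 4 OCT-2 peaks in its region (11.7 per Mb), at 111961805, 111992610, 112041810 and 112119201. None lay in UGCG, the nearest was 26.6 kb from an end of the gene, and the last pair lay in SUSD1. Neighbours were 30.8 to 77.4 kb apart.

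EXT1, which with EXT2 lengthens heparan sulfate chains, was covered over 95.1% of its 317.3 kb in both lists. Its region on chromosome 8 ran over 117810054 to 118143724 (333.7 kb) in OCT-2 cells and 117810083 to 118120981 (310.9 kb) in GFP cells. Left ends were 0.029 kb apart, and the right end reached 22.7 kb farther in OCT-2 cells, into SAMD12, a sterile alpha motif protein, of which 2.43% was met there. Calls differed by at least 0.914 kb in OCT-2 cells and 3.40 kb in GFP cells. The difference in the right end was thus larger than the least mismatch within either list, which is a lower bound.

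OCT-2 peaks at EXT1 numbered 6 (18.0 per Mb), the second most among the 9. Of these, 4 lay in the gene, at 117879791, 117978193, 118004646 and 118096806, the fifth at 118116412 between the genes, and the sixth at 118140919 in SAMD12, in the stretch of the OCT-2 cells alone. Distances between neighbours ran 19.7 to 98.5 kb with a median of 26.4 kb.

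DUSP4, a nuclear dual-specificity phosphatase that inactivates ERK and other MAP kinases, is the only one of the 9 that its shared region does not meet in either list. The region on chromosome 8 ran over 29493044 to 29779411 (286.4 kb) in OCT-2 cells and 29490050 to 29779512 (289.5 kb) in GFP cells. It met no protein-coding gene. DUSP4 (29333064 to 29350684) lay 142.4 kb to its left in OCT-2 cells and 139.4 kb in GFP cells, and SARAF, a regulator of calcium entry, was the next protein-coding gene on the other side, 283.6 kb away. Which gene the region acts on was not tested.

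A separate superenhancer of 59.6 kb, 29314728 to 29374338, covered the whole of DUSP4 in OCT-2 cells and held no OCT-2 peak. It had no counterpart in the GFP list, where a region called only once may not be listed. It stood 118.7 kb from the shared region, where 4 peaks (14.0 per Mb) lay 67.9 to 95.2 kb apart, at 29513350, 29607366, 29675229 and 29770467. Calls of the shared region differed by at least 0.012 kb in OCT-2 cells and 3.69 kb in GFP cells.

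Over the 9 loci, 8 gene bodies were met by the region of the OCT-2 cells and 6 by the regions of both lists. Of all protein-coding genes 3.4% had superenhancers of both lists over the gene body, and since the genes were picked at such regions, nothing follows from the difference. The 9 regions met 32 protein-coding genes in OCT-2 cells and 23 in GFP cells, and 10 of the 32 were met in OCT-2 cells alone, all at SLC45A1, EXT1 and ISYNA1. They also met 53 other annotated genes, 5 of them for miRNAs: MIR4668 at UGCG, MIR3188 and MIR3189 at ISYNA1, MIR6124 at MICAL2 and MIR10523 at ERGIC1.

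**Figure D3:**
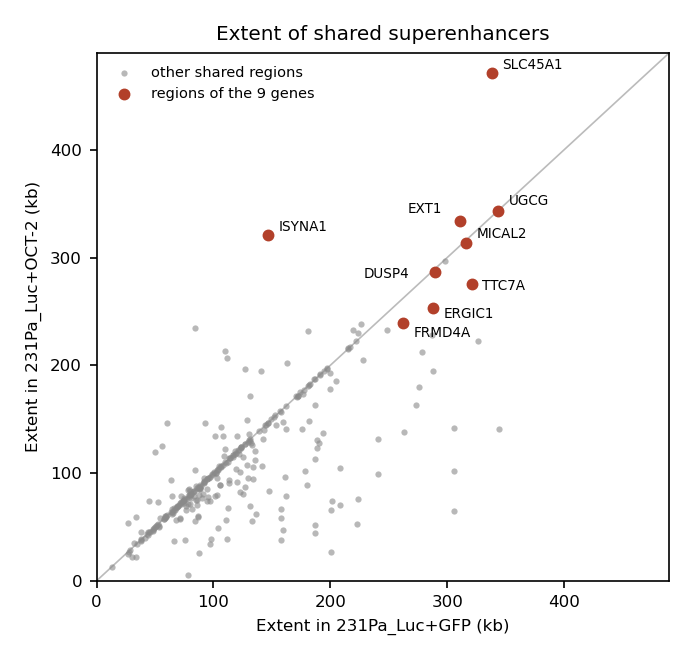
Extent of the 314 shared superenhancers in kb, in 231Pa_Luc+OCT-2 (vertical axis) against 231Pa_Luc+GFP (horizontal axis); red points are the 9 regions, grey points the other 305, and the line marks equal extents. SLC45A1 (471.1 kb in 231Pa_Luc+OCT-2, 338.0 kb in 231Pa_Luc+GFP) and ISYNA1 (320.9 and 146.7 kb) stand above the line, while UGCG, MICAL2 (its 2 GFP regions with their gap) and DUSP4 lie on it within 3.10 kb.

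OCT-2 peaks were present in 8 of the 9 regions, close to the 81.8% of all shared regions. In total 35 peaks lay in 2.84 Mb, or 12.3 per Mb, against 609 peaks and 19.3 per Mb in the other shared regions. Without SLC45A1 the other 8 regions held 24 peaks, 10.1 per Mb. Wide regions were less dense in general: in 4 classes of shared regions from narrowest to widest, of 78 or 79 regions each, the values were 24.2, 20.2, 20.6 and 15.6 peaks per Mb, and the widest class without the 9 had 16.3. These are descriptions of 1 peak list, with no test.

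**Figure D4:**
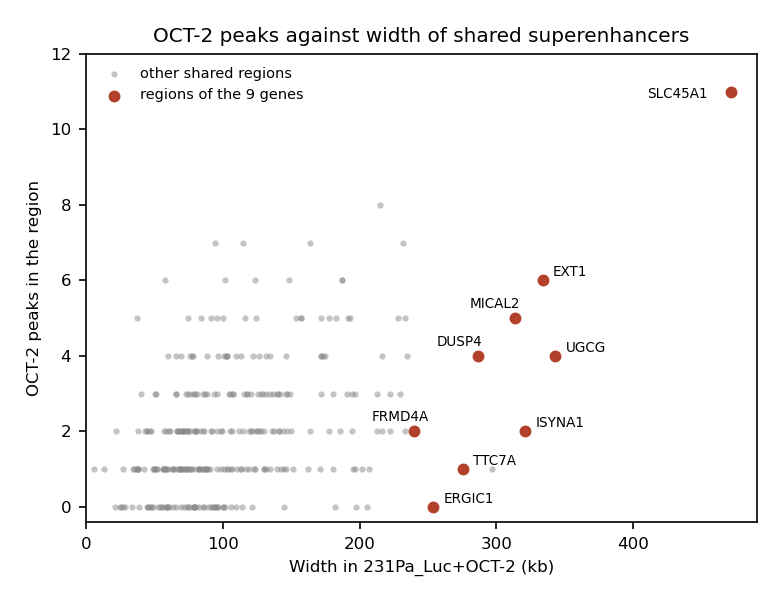
Number of OCT-2 peaks in each of the 314 shared superenhancers against its width in 231Pa_Luc+OCT-2 in kb; red points are the 9 regions and grey points the others. SLC45A1 stands highest with 11 peaks, and ERGIC1 has 0 at 253.5 kb.

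Within the 9 regions the 27 distances between neighbouring peaks had a median of 41.1 kb, and 1 was under 1 kb. In the other shared regions 360 distances had a median of 19.4 kb, and 11 were under 1 kb. Distances were taken inside each region, so a narrow region cannot hold a long one. Median widths in OCT-2 cells were 313.8 kb for the 9 and 91.6 kb for the others, so the spacings were not compared at like width. Of the 35 peaks, 31 lay in the 2.45 Mb common to both lists (12.7 per Mb) and 4 in the 0.392 Mb of the OCT-2 cells alone (10.2 per Mb). Peaks were 238 to 413 bp wide, with a median of 265 bp.

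Of the 35 peaks, 14 overlapped a protein-coding gene body, and for 11 this was the gene its region is named for. Gene starts were listed for the regions of 25 peaks, and 3 of those lay within 1 kb of one, namely the starts of LSM4, ELL and LINC02989. By gene, SLC45A1, EXT1, MICAL2, TTC7A and FRMD4A, 5 of the 9, had a peak in the gene body, against 10.7% of protein-coding genes. The same 5 had one within 10 kb, against 15.5%. The 9 sit at superenhancers by choice and 3 of them exceed 250 kb in length, and the part of either in these shares was not tested.

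The biochemical relatives of the 9 genes were looked up in 9 lists of 81 genes. Of the 81, 7 (8.64%) lay within 10 kb of a superenhancer of the OCT-2 cells, against 5.75% of protein-coding genes. In the GFP cells 5 (6.17%) did so, against 4.31%, and 4 (4.94%) did so in both lists, against 3.73%. DUSP1 counts here through the choice of the ERGIC1 region, and without it 6 of 80 in OCT-2 cells, 4 in GFP cells and 3 in both lists remain. OCT-2 peaks lay within 10 kb of 14 (17.3%), close to the 15.5% of all protein-coding genes. Neither a superenhancer nor a peak lay there for 62 of the 81.

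Of 9 MAP kinase phosphatases related to DUSP4, 3 lay at superenhancers of both lists and none within 10 kb of an OCT-2 peak. They were DUSP1, in the region of ERGIC1, DUSP6, which acts on cytoplasmic ERK (131.6 kb in OCT-2 cells, 142.4 kb in GFP cells), and DUSP7, of the same group (56.1 kb in OCT-2 cells, 110.6 kb in GFP cells). The superenhancers of DUSP6 and DUSP7 in OCT-2 cells each held 1 OCT-2 peak, more than 10 kb from the gene. Of 7 FERM-domain and polarity genes listed with FRMD4A, FRMD6 lay at superenhancers of both lists (93.0 kb in 2 regions of the OCT-2 cells, 136.2 kb in GFP cells), and 3 peaks lay within 10 kb of the gene. PARD3, a scaffold of the polarity complex, lay at one of the OCT-2 cells alone (65.3 kb) that held 1 peak, and 2 peaks lay within 10 kb of the gene.

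Among 16 heparan sulfate genes listed with EXT1, the sulfotransferase NDST2 lay at a superenhancer of the OCT-2 cells (196.3 kb) and at none of the GFP cells. That region is a shared one: it overlapped a GFP region of 126.8 kb over 94.3 kb, in a part that leaves out NDST2. NDST1 lay at a superenhancer of the GFP cells alone (100.1 kb), and EXTL2 and NDST1 had a peak. Of 8 MICAL genes and partners, MSRB1, which reverses the oxidation of actin by MICAL proteins, lay at a superenhancer of the OCT-2 cells alone (106.0 kb), and MICAL3, MRTFA and SRF had a peak. No superenhancer lay at the 11 glycosphingolipid genes listed with UGCG, of which B4GALT5, B3GNT5 and GBA2 had peaks, or at the 6 genes of the phosphatidylinositol 4-kinase complex listed with TTC7A, of which TTC7B, HYCC1 and EFR3A did. None lay at the 13 genes of early secretory traffic listed with ERGIC1, of which KDELR2 had a peak, and neither superenhancer nor peak lay at the 3 other SLC45 genes or the 8 inositol genes.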

How the data were processed

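Per the labels' protocols, each immunoprecipitation took 5 µg of antibody and each library 15 PCR cycles. HOMER, bedtools, Bowtie and Bowtie2 2.2.2.6 stand, without roles, in the submitters' processing notes. Callers, thresholds and the merging of replicates are not given in the sources used here. Deposited were 10 interval lists, without scores or values per replicate. The names of the 3 lists used give their build as hg38. The others are in hg19 and were not used for genes, since no coordinates were converted. The MDA-MB-436 lists name no build and were taken as hg19 because 71 of their 1074 region ends lay within 300 bp of an end in the hg19 lists and 3 of one in the hg38 lists.

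Positions are 1-based. Genes come from RefSeq GRCh38.p14 (59675 genes, no strand or exons) and starts from its promoter table. Overlap of 1 bp counted. 5 peaks on other contigs were left out of 5741. Named were the 9 genes, the protein-coding genes their regions meet (where more than 6, those at a peak or nearest the middle), their listed relatives at a superenhancer or within 10 kb of a peak, and, chosen after their values were seen, the further genes at ISYNA1, the neighbours by width, the flanking regions and the promoters shown. A few genes met are not reported here. The 9 genes and all lists were chosen with earlier results of these data known. The reading of the region centres was added after the lists were seen. With 1 merged list per group no test was possible; whether replicates were separate cultures is not given. The counting was checked on simulated lists (Python 3.11.15, numpy 2.4.6, pandas 2.3.3, matplotlib 3.10.9).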

Additional observations from a re-analysis of the deposited data

How the results depend on the processing

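Of the 9 regions, 8 remained in both lists when 50% of each had to overlap, ISYNA1 being the exception, and 7 were among the 10 widest by the shorter merged call, without UGCG and ISYNA1. The median difference of extent, OCT-2 minus GFP cells, was -2.41 kb, and -0.63 or -2.75 kb with summed GFP regions or the 50% overlap. Genes met in both lists numbered 6, and 5 to 7 under the other gene rules. Peaks numbered 35, and 31 with the GFP extents or the common stretch; at ISYNA1 2 became 1. Median spacing stayed within 40.8 to 42.6 kb. Genes met were 32, and 23 or 31 under the other rules. Relatives at superenhancers of the OCT-2 cells numbered 7, and 4 with as many of the widest regions as the GFP list holds. Relatives with peaks numbered 14, and 27 within 50 kb. No replicate could be left out and no paired analysis was possible because the lists hold merged calls. Without counts, neither depth nor signal height limits could be set.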
